A study of Mus musculus with 4 samples.

Results

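Fam167b and 8 neighbours of the Lck locus on mouse chromosome 4 were described in colonic CD4+ T cells, as 9 of the 16555 genes in the deposited table. The genes were chosen by symbol: Lck, genes near it, and Fam167b, which had come to attention because it was higher in 1 group. The choice matters here because the Cre transgene of the study uses the distal Lck promoter. Values of the 9 genes in the comparison of the groups are therefore given as a description, without p-values, and counts of calls among them are read for nothing more.

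RNA was sequenced from CD45+CD3+CD4+ cells sorted from colons of Rag1-/- hosts, which have no T or B cells of their own. The hosts had received CD4+CD25-CD45RBhi T cells 6 weeks earlier, and this procedure leads to colitis. The donors were CK2αfl/fl mice with dLck-Cre in 2 libraries and CK2αfl/fl mice without it in 2 libraries, so that both groups carried the floxed CK2α alleles and differed by the transgene. CK2α, encoded by Csnk2a1, is a catalytic subunit of the protein kinase CK2. The distal Lck promoter drives Cre in mature T cells. The labels do not say whether animals were pooled or whether replicates came from separate animals, so errors between replicates may be technical in part.

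Lck is a Src family kinase that binds the CD4 and CD8 coreceptors and starts signalling from the T cell receptor. Its gene has a proximal promoter used in thymocytes and a distal promoter, farther upstream, used in mature T cells, and the distal one is a common choice for transgenes. Fam167b encodes a small protein of a family with Fam167a, and its function in T cells is little described.

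The 9 genes lie between 129516104 and 129672767 on chromosome 4 (GRCm38), a stretch of 156.7 kb, with 8 on the minus strand and Tmem234 on the plus strand. Their order by coordinate is Hdac1, Lck, Fam167b, Eif3i, Tmem234, Iqcc, Ccdc28b, Txlna and Kpna6. Fam167b spans 129576815 to 129578549 and is protein-coding, and 3173 bases separate it from the end of Lck at 129573641. Since both are read on the minus strand, Fam167b lies just upstream of the distal Lck start. On its other side 13410 bases separate it from Eif3i. By the annotation no other gene overlaps Fam167b, whereas Tmem234 shares 378 exon bases with Iqcc and 303 with Ccdc28b on the opposite strand. The counting was not stated to use strand, so reads of these 3 genes may be mixed.

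The promoters of Fam167b and of both Lck starts are shown because the 2 genes are adjacent and differed in the pattern described here. Counts were per gene, so no Lck read was assigned to either of its starts. They are RefSeq sequences of GRCm38.p6, each 300 bases on the minus strand, from 250 bases before the start to 50 after it, and capitals mark the ETS motif AGGAAGT or its reverse complement ACTTCCT. The windows are chr4:129578531-129578830 for Fam167b, chr4:129573592-129573891 for the upstream (distal) Lck start and chr4:129558323-129558622 for the downstream (proximal) Lck start.
Fam167b: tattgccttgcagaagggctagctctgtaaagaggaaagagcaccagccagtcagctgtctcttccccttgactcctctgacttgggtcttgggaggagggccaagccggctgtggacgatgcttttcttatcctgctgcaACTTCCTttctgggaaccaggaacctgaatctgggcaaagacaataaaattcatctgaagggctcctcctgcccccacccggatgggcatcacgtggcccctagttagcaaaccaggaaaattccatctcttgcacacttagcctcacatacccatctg
Lck upstream start: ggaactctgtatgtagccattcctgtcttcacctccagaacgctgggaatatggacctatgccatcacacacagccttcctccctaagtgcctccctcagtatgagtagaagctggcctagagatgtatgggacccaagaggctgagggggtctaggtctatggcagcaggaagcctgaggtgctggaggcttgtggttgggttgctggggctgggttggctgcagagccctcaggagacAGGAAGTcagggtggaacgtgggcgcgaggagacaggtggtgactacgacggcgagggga
Lck downstream start: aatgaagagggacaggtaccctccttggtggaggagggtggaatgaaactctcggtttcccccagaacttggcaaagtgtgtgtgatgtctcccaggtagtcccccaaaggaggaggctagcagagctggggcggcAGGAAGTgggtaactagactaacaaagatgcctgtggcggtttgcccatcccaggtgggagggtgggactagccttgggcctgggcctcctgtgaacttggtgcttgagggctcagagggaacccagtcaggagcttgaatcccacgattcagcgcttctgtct
The Fam167b start lay 4.939 kb from the upstream Lck start, and the Lck starts lay 15.269 kb apart. Each window held 1 ETS match, at position -109 in Fam167b, -10 at the upstream Lck start and -114 at the downstream one, counted from the start. Of the 7 promoters of the 9 genes that RefSeq gave, these 3 held the motif, and those of Tmem234, Iqcc and Txlna (with 2 starts) did not. Of 32544 RefSeq promoters of the same length 9.27% held this motif on either strand. The RUNX motif TGTGGT (16.7% of promoters) was found at the upstream Lck start, at position -58, and the E-box CACGTG (7.17%) in Fam167b, at position -19. The motifs AGATAA of GATA factors, TGACTCA of AP-1 and TATAAA, searched on both strands as well, had no match in these 3 windows. A match is a run of letters, not a shown binding site.

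The targeted gene is given first as a check of the labels. Csnk2a1 had 2118 and 2031 normalized counts in the dLck-Cre-labelled libraries, against 1534 and 1597 in the fl/fl libraries. It was thus not lower where deletion was labelled (log2 difference 0.41 ± 0.13 SE; limma, adjusted p = 0.108). A count per gene does not show whether an exon was deleted, so the groups are named here by their labels. Total reads ran from 16777017 to 22422971 per library.

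Fam167b was the gene of the locus that stood apart. It had 70.0 and 124.4 normalized counts (counts divided by 1 size factor per library) in the dLck-Cre-labelled libraries, against 10.4 and 8.84 in the fl/fl libraries. Both libraries labelled dLck-Cre were high, both fl/fl libraries were low, and the groups did not overlap. The means were 97.2 ± 38.5 for dLck-Cre and 9.62 ± 1.10 for fl/fl (SD, n = 2 each), a 10.1-fold difference. Across the 4 pairs of libraries, the ratio ran from 6.74 to 14.1. On the scale of log2(normalized count + 1) the difference was 3.16 ± 0.42 (SE), the seventh largest increase among 16490 genes tested and larger in size than that of 99.9% of them.

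These values rest on few reads. Fam167b had 67 and 152 reads in the dLck-Cre-labelled libraries, against 10 and 8 in the fl/fl libraries. Per 1000000 reads this was 3.99 (exact Clopper-Pearson 95% interval 3.09 to 5.07) and 6.78 (5.74 to 7.95) in the libraries labelled dLck-Cre. In the fl/fl libraries it was 0.540 (0.259 to 0.993) and 0.453 (0.196 to 0.892). The lowest bound in the libraries labelled dLck-Cre lay above the highest bound in the fl/fl libraries. That is no test of the difference, since the same contrast chose the gene. Pooled over libraries, the ratio of reads per total was 11.2, with an interval of 6.94 to 19.3. These intervals cover counting error only, as they take reads as independent and leave out the spread between libraries, which the pooled one merges. The sources mention no molecular identifiers, so copies of a molecule may have been counted more than once. The libraries labelled dLck-Cre differed from each other by 1.78 times, beyond their counting intervals, and the fl/fl libraries by 1.18 times.

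The gene next to it did not share this pattern. Lck had 8560 and 6935 normalized counts in the dLck-Cre-labelled libraries, against 10128 and 9063 in the fl/fl libraries. Both libraries labelled dLck-Cre were below both fl/fl libraries, by a narrow margin in replicate 1, and the log2 difference was -0.31 ± 0.15 (SE). Lck is high in these cells, at the 98.1 percentile of genes by normalized count per kb of exon.

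**Figure D1:**
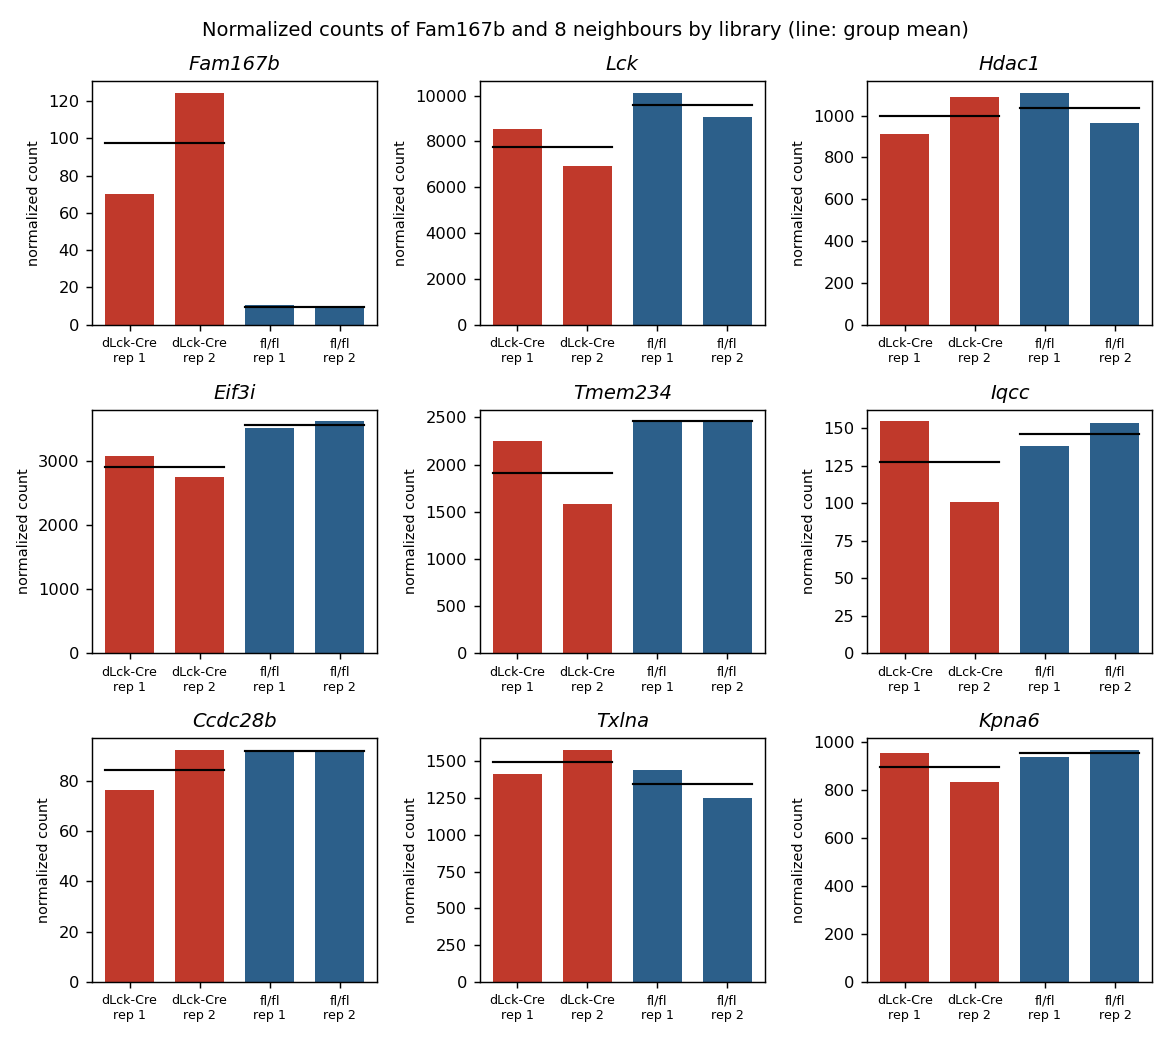
Normalized counts of the 9 genes of the Lck locus in each library (bars, linear axes from 0; black lines are group means, n = 2 each), with the libraries labelled dLck-Cre in red and the fl/fl libraries in blue. Fam167b stands at 70.0 and 124.4 for dLck-Cre against 10.4 and 8.84 for fl/fl, while for each of the other 8 genes the group means differ by at most 1.28 times.

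Because Fam167b and Lck were counted in the same libraries, their ratio does not depend on the size factors. Fam167b took 0.812% of the reads of Fam167b plus Lck in dLck-Cre replicate 1 (exact 95% interval 0.629 to 1.03) and 1.76% in replicate 2 (1.495 to 2.06). It took 0.103% in fl/fl replicate 1 (0.0492 to 0.188) and 0.0974% in replicate 2 (0.0421 to 0.192). Both fl/fl libraries agree within counting error. No interval of one group reached the other group, which again is no test, as this contrast chose Fam167b. The mean share was 1.29% ± 0.672 in the libraries labelled dLck-Cre and 0.09996% ± 0.00360 in the fl/fl libraries (SD, n = 2 each), 12.9 times higher. With Eif3i, the neighbour on the other side, in place of Lck, the mean shares were 3.29% ± 1.49 for dLck-Cre and 0.269% ± 0.0365 for fl/fl (SD, n = 2 each), a 12.2-fold difference. Over all 9 genes Fam167b took 0.401% and 0.825% of the reads in the dLck-Cre-labelled libraries, against 0.0524% and 0.0476% in the fl/fl libraries. Among the other genes, Lck was at 49.0% and 46.0% of the reads of the 9 genes for dLck-Cre, against 51.1% and 48.8% for fl/fl. Eif3i took 17.6% and 18.2% for dLck-Cre, against 17.7% and 19.5% for fl/fl. Txlna took 8.11% and 10.5% for dLck-Cre, against 7.28% and 6.75% for fl/fl, while Kpna6 took 5.47% and 5.54% for dLck-Cre, against 4.73% and 5.21% for fl/fl. In neither did the groups overlap.

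**Figure D2:**
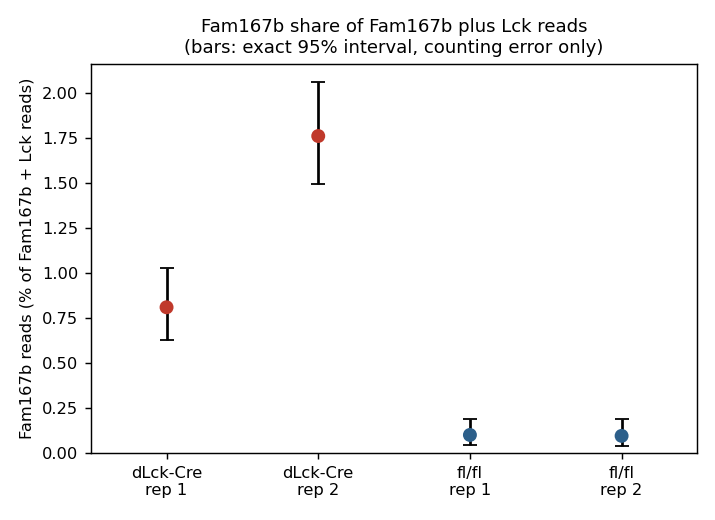
Fam167b reads as a percent of Fam167b plus Lck reads in each library (points; bars are exact 95% intervals that cover counting error only; linear axis from 0). The libraries labelled dLck-Cre stand at 0.812% and 1.76%, above the fl/fl libraries at 0.103% and 0.0974%.

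Compared per kb of exon, Fam167b held a different place in the order of the locus in the groups. In the libraries labelled dLck-Cre the mean normalized count per kb was 2645 for Lck, 784.5 for Eif3i, 448.5 for Tmem234, 290.2 for Hdac1, 280.1 for Txlna, 133.0 for Kpna6, 101.4 for Fam167b, 41.7 for Ccdc28b and 40.1 for Iqcc. In the fl/fl libraries it was 3276 for Lck, 962.7 for Eif3i, 575.6 for Tmem234, 300.9 for Hdac1, 252.3 for Txlna, 141.7 for Kpna6, 45.8 for Iqcc, 45.5 for Ccdc28b and 10.03 for Fam167b. Fam167b was thus the lowest of the 9 in the fl/fl libraries and lay above Ccdc28b and Iqcc in the libraries labelled dLck-Cre. There its values of 73.0 and 129.7 per kb overlapped those of Kpna6, which were 142.0 and 124.1. Hdac1 and Txlna overlapped in the libraries labelled dLck-Cre, as did Ccdc28b and Iqcc in both groups.

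**Figure D3:**
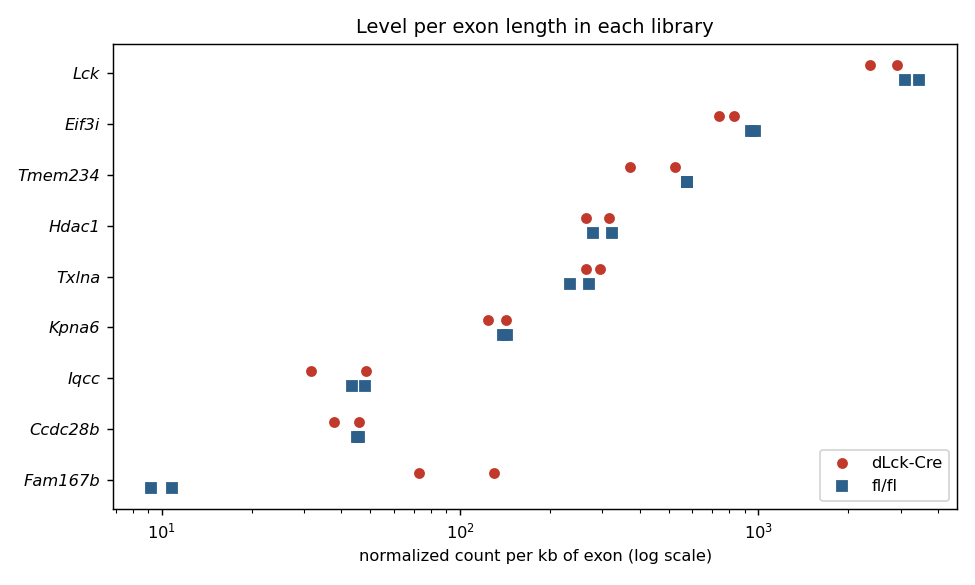
Normalized count per kb of exon for each of the 9 genes (log axis), with 2 red points for the libraries labelled dLck-Cre above 2 blue squares for the fl/fl libraries. Fam167b is at 73.0 and 129.7 for dLck-Cre against 10.8 and 9.22 for fl/fl, and for the other genes the points of both groups lie close together.

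The other 7 neighbours also differed little. Hdac1, a histone deacetylase of the Sin3, NuRD and CoREST complexes, had 910.5 and 1089 normalized counts in the dLck-Cre-labelled libraries, against 1110 and 963.3 in the fl/fl libraries (log2 difference -0.05 ± 0.16 SE). The groups overlapped. Eif3i, a subunit of the translation initiation factor eIF3, had 3069 and 2740 for dLck-Cre, against 3510 and 3618 for fl/fl (-0.30 ± 0.13). Tmem234, which encodes a membrane protein, had 2245 and 1587 for dLck-Cre, against 2461 and 2458 for fl/fl (-0.38 ± 0.18). For both genes the libraries labelled dLck-Cre lay below the fl/fl libraries, and for Tmem234 replicate 2 was the lower of them.

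Iqcc, named for its calmodulin-binding IQ motif, had 154.7 and 100.7 normalized counts in the dLck-Cre-labelled libraries, against 138.2 and 153.6 in the fl/fl libraries (log2 difference -0.22 ± 0.27 SE). Ccdc28b, whose human counterpart modifies Bardet-Biedl syndrome, had 76.3 and 92.5 for dLck-Cre, against 92.5 and 91.7 for fl/fl (-0.13 ± 0.26). Txlna, a taxilin that binds syntaxins in vesicle traffic, had 1415 and 1581 for dLck-Cre, against 1445 and 1254 for fl/fl (0.15 ± 0.15). In these 3 genes the groups overlapped. Kpna6, an importin alpha that carries proteins into the nucleus, had 955.4 and 834.9 for dLck-Cre, against 938.5 and 968.8 for fl/fl, and overlapped too (-0.09 ± 0.15).

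All 9 genes passed the filter of a mean of at least 10 normalized counts, Fam167b only through the libraries labelled dLck-Cre. Fam167b alone of the 9 passed limma's threshold, by which 6.97% of all genes were called (5.75% higher and 1.22% lower), and since this contrast chose it nothing is read from that count. Of the 8 neighbours 0 were called (0 had an unadjusted p under 0.05), and edgeR and DESeq2 also called 0 of them. With a replicate block in limma, Lck, Eif3i and Tmem234 had an unadjusted p under 0.05, as had 4830 of all 16490 genes, and were not called. edgeR called 6.87% of all genes, and DESeq2 12.7% of the 13932 genes to which it gave an adjusted p. Of the 8, 3, Lck, Eif3i and Tmem234, had groups that did not overlap, all lower, as had 27.4% of all genes (a further 27.7% did not overlap and were higher). The neighbours' log2 differences ran from -0.38 to 0.15 with a median of -0.18, beside a median of -0.02 over all genes. Without dLck-Cre replicate 2 Fam167b kept a difference of 2.75 but was not called, and 17 genes in all were called in place of 1150. Without dLck-Cre replicate 1 Tmem234 was called as well, at -0.63.

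Markers of cell types moved with these differences. The summed normalized counts of 20 T cell markers were 106997 and 100407 in the dLck-Cre-labelled libraries, against 153010 and 153935 in the fl/fl libraries. Of the 20, which were all present, 7 fell and 0 rose (limma, adjusted p under 0.05), while 1.22% of all genes fell and 5.75% rose. Lck, which is no member of that list, amounted to 8.0003% and 6.91% of this sum in the dLck-Cre-labelled libraries, against 6.62% and 5.89% in the fl/fl libraries, so that relative to T cell markers it was not lower. When values were scaled to the T cell markers, every gene moved up by 0.54, so the median of all genes was 0.52. Lck then stood at 0.23 and the median neighbour at 0.37. As every gene moved alike, their distance to the median of all genes was the same as before. On that scale 32.6% of all genes were called, Txlna and Kpna6 among them. Whether there were fewer T cells or less of these RNAs per cell cannot be told apart in bulk samples. Fam167b stood at 3.70 after this scaling.

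Several sums of markers of other cell types were higher where the T cell sum was lower. The sum of 16 epithelial markers was 75030 and 100838 in the dLck-Cre-labelled libraries, against 34498 and 37125 in the fl/fl libraries, and 15 of 16 rose. Over all genes 5.75% rose. The sum of 18 myeloid markers was 69549 and 58423 for dLck-Cre, against 39488 and 25864 for fl/fl, and 12 of 18 rose. Of 12 CD8 T and NK cell markers 11 were tested and 1 rose. Their sums were 3729 and 3698 for dLck-Cre against 2462 and 2462 for fl/fl. Eomes was the largest part, with 1599 and 1714 for dLck-Cre against 1206 and 852.8 for fl/fl. Of the 11, 9 had a log2 difference above 0 and 2 below, Cd8a (-0.56 ± 0.42 SE) and Cd8b1 (-0.02 ± 1.04). The genes of CD8 itself were thus not higher. Of 10 B and plasma cell markers 5 were tested and 3 rose, with sums of 2160 and 2641 for dLck-Cre against 1022 and 1123 for fl/fl. The other 5 were not analysed here. Endothelial markers were not higher as a sum, at 1415 and 1326 for dLck-Cre against 1896 and 1280 for fl/fl, although their median log2 difference was 0.80. Pecam1 alone made up most of this sum, with 732.8 and 819.4 for dLck-Cre against 1240 and 1115 for fl/fl, and the median was 1.96 without fl/fl replicate 1 and -0.28 without fl/fl replicate 2. Of 15 tested 0 were called (1 had an unadjusted p under 0.05; edgeR called 0 and DESeq2 called 1). Fibroblast and muscle markers had sums of 2410 and 3484 for dLck-Cre against 2845 and 803.1 for fl/fl, and of 11 tested 0 were called (5 had an unadjusted p under 0.05; edgeR called 0 and DESeq2 called 1). No marker analysed from these 7 lists was at 0 in any library. Without dLck-Cre replicate 2, limma called 0 of the T cell markers (16 had an unadjusted p under 0.05), 0 of the myeloid markers (15), 0 of the B and plasma cell markers (4) and 1 of the epithelial markers (16). The T cell count was 3 without fl/fl replicate 1 and 2 without fl/fl replicate 2, and the myeloid count was 5 without dLck-Cre replicate 1. Without fl/fl replicate 1, 7 of 11 fibroblast and muscle markers and 4 of 15 endothelial markers were called higher. Of the CD8 T and NK cell markers, 4 were called higher without fl/fl replicate 2, and 0 higher without either dLck-Cre library, where 1 was called lower without replicate 1.

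Fam167b differed more than any of these sums. It amounted to 0.0933% and 0.123% of the epithelial sum in the dLck-Cre-labelled libraries, against 0.0301% and 0.0238% in the fl/fl libraries, a 4.02-fold difference. Relative to the myeloid sum the difference was 5.19-fold, to the fibroblast and muscle sum 4.42-fold, to the B and plasma cell sum 4.41-fold, to the CD8 T and NK cell sum 6.71-fold, to the endothelial sum 11.6-fold and to the T cell sum 15.1-fold. The sort for CD45+CD3+CD4+ cells is meant to remove epithelial, myeloid, B, endothelial and fibroblast cells. RNA of markers of these cells was nevertheless present in every library. The epithelial sum was 75030 and 100838 in the dLck-Cre-labelled libraries, beside T cell sums of 106997 and 100407. It was 34498 and 37125 in the fl/fl libraries, beside T cell sums of 153010 and 153935. The cells that held the Fam167b RNA were not identified, and the part of other cells in its difference was not tested.

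**Figure D4:**
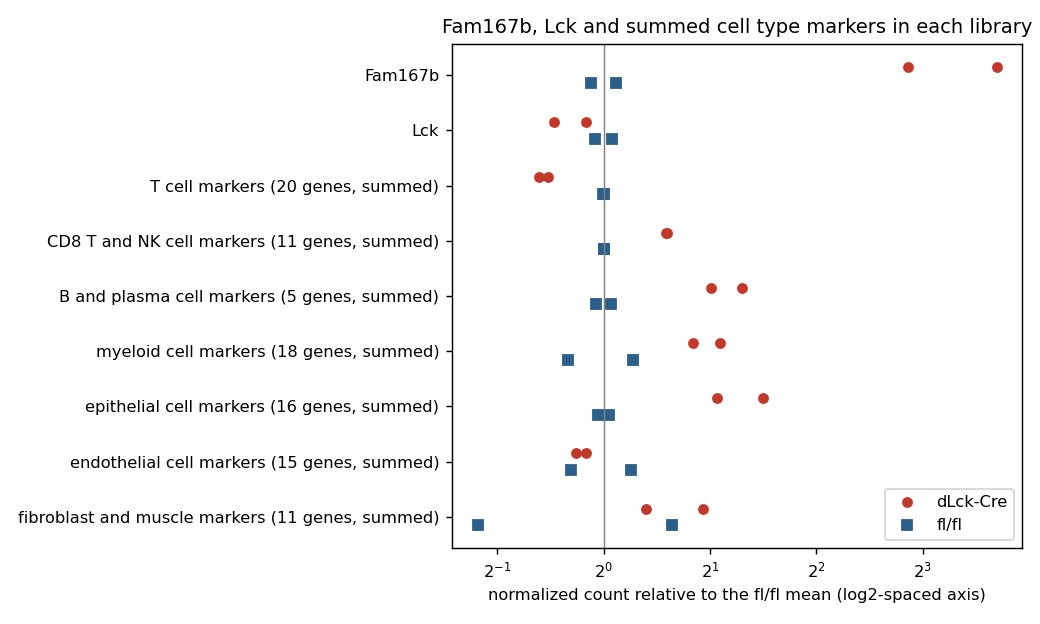
Normalized counts of Fam167b, of Lck and of summed cell type markers in each library, relative to the mean of the fl/fl libraries (log axis in steps of 2; red, libraries labelled dLck-Cre; blue, fl/fl libraries). Fam167b stands at 7.28 and 12.9 for dLck-Cre, beyond the epithelial sum at 2.10 and 2.82, while the T cell sum is at 0.697 and 0.654.

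A wider window was centred on Fam167b, and its genes were taken by position. Of 63 other annotated genes with a start within 1 Mb of the Fam167b start, 33 were tested and 5 passed, 4 higher and 1 lower (limma, adjusted p under 0.05). This was 15.2% of those tested, beside 6.97% of all genes. Tinagl1, a secreted matrix-associated protein gene, had 577.0 and 1121 normalized counts in the dLck-Cre-labelled libraries, against 225.5 and 279.5 in the fl/fl libraries (log2 difference 1.68 ± 0.30 SE; limma, adjusted p = 0.0274). Tmem54 had 520.6 and 621.3 for dLck-Cre, against 213.1 and 235.3 for fl/fl (1.34 ± 0.18; limma, adjusted p = 0.0195). C77080 had 1056 and 1394 for dLck-Cre, against 456.3 and 574.4 for fl/fl (1.24 ± 0.19; limma, adjusted p = 0.0215). Serinc2, a serine incorporator gene, had 319.9 and 446.1 for dLck-Cre, against 152.8 and 209.9 for fl/fl (1.07 ± 0.25; limma, adjusted p = 0.0468). In these 4 genes both libraries labelled dLck-Cre lay above both fl/fl libraries.

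S100pbp was the gene that fell, with 499.7 and 469.0 normalized counts in the dLck-Cre-labelled libraries, against 747.3 and 845.1 in the fl/fl libraries (log2 difference -0.71 ± 0.15 SE; limma, adjusted p = 0.0396). None of the 5 is adjacent to Fam167b. The nearest is C77080, 317.1 kb downstream along the Fam167b strand, with Hdac1 and Lck between them. The other 28 tested genes did not pass, Dcdc2b (-0.45 ± 0.39 SE), which lies between Eif3i and Kpna6, among them. The epithelial and myeloid sums were higher as well where these 4 genes were higher, and their part was not tested. Without dLck-Cre replicate 2, 0 of the 33 passed limma's test (7 had an unadjusted p under 0.05), and without fl/fl replicate 1 it was 3.

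**Figure D5:**
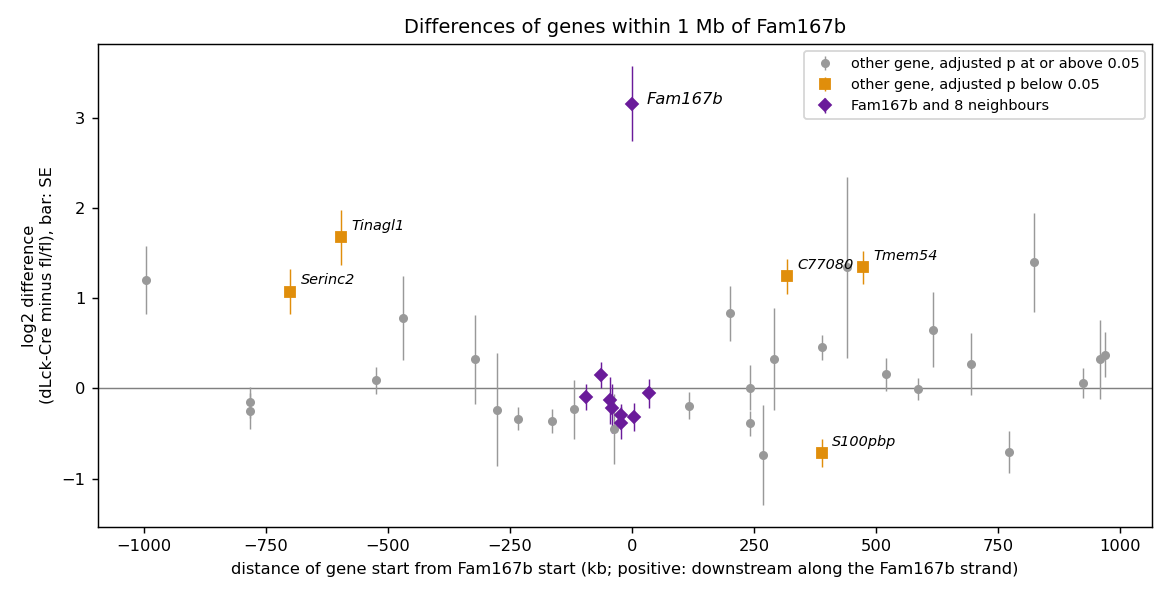
Log2 difference, dLck-Cre minus fl/fl, of genes within 1 Mb of Fam167b against the distance of their start from the Fam167b start in kb (points with SE; purple, the 9 genes; orange, other genes called by limma; grey, other genes). Fam167b is at 3.16, its 8 neighbours lie between -0.38 and 0.15, and the called genes are at least 317.1 kb away.

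Genes that act with the members were read from lists. Of the other Src family kinases 7 were tested and 4 rose, at a list median of 0.85 beside -0.02 over all genes. Over all genes 5.75% rose by the same threshold. Lyn had 960.6 and 999.5 normalized counts in the dLck-Cre-labelled libraries, against 418.8 and 388.9 in the fl/fl libraries (log2 difference 1.28 ± 0.15 SE; limma, adjusted p = 0.0195). Src rose by 0.85 and Frk by 1.34, whereas Fyn, the other main Src kinase of T cells, differed by -0.29 ± 0.13 (limma, adjusted p = 0.231). Lyn is a kinase of myeloid and B cells and Frk of epithelia, and the sums of myeloid and epithelial markers were higher too. Their part was not tested.

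Of 20 regulators and partners of LCK 4 fell and 0 rose, at a median of -0.37, while 1.22% of all genes fell and 5.75% rose. Pag1, an adaptor that holds the inhibitory kinase CSK at the membrane, differed by -0.91 ± 0.14 (SE; limma, adjusted p = 0.0201), the phosphatase gene Ptpn22 by -0.79, Ubash3a by -0.68 and Cd5 by -1.11. The T cell marker sum was lower in these libraries, and Cd4, Cd5 and Zap70 are on both lists. The median lay below that of all genes (-0.37 beside -0.02). Scaling to T cell markers raises every gene by the same 0.54, so it could not change this gap (0.17 beside 0.52). On that scale 0 of the 20 were called in either direction, while 32.6% of all genes were called, 5330 higher and 48 lower. Without dLck-Cre replicate 2, 0 of the 7 Src kinases (6 had an unadjusted p under 0.05) and 0 of the 20 regulators (8) passed limma's test, and without fl/fl replicate 2 it was 2 of the 20.

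For the other neighbours, the class I HDAC, eIF3 and importin lists had medians slightly below the -0.02 of all genes. Below 0 were 22 of 24 HDAC complex genes, 9 of 12 eIF3 subunits and 12 of 13 importins. Groups were apart and lower for 15, 7 and 10 of these (27.4% of all genes). They were apart and higher for 0, 1 and 1 (27.7%). Above 0 were 3 of 5 taxilins and syntaxins and 6 of 10 BBSome genes, as were 47.7% of all genes. By limma 5.75% of all genes were called higher and 1.22% lower. Of 24 other genes of class I HDAC complexes, Sap30 fell (-0.83 ± 0.19 SE; limma, adjusted p = 0.0484) and 0 rose, at a median of -0.15. Of 12 other eIF3 subunits 0 were called by limma (5 had an unadjusted p under 0.05; edgeR called 0 and DESeq2 called 1), at a median of -0.12. Of 13 importins 0 were called by limma (0 had an unadjusted p under 0.05; edgeR called 0 and DESeq2 called 0), at a median of -0.16. Of 5 other taxilins and syntaxins Stx3, a syntaxin of epithelia, rose by 1.32, and of 10 genes of the BBSome and its chaperonins 0 were called by limma (1 had an unadjusted p under 0.05; edgeR called 0 and DESeq2 called 0). After scaling to T cell markers, which raises every gene by 0.54, 6 of the 24 HDAC complex genes, 6 of the 12 eIF3 subunits and 2 of the 13 importins were called higher and 0 lower. On that scale 32.6% of all genes were called, 5330 higher and 48 lower. Sap30 was not called without dLck-Cre replicate 2 or without fl/fl replicate 2, nor was Stx3 without dLck-Cre replicate 2. Fam167a was not analysed here.

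The genes most like Fam167b were found by the root mean square distance of log2 values, centred per gene, over the 4 libraries, among 12199 other genes with a mean of at least 50. The closest was Tnfsf4, which encodes OX40L, at a distance of 0.119, with 588.5 and 1112 normalized counts in the dLck-Cre-labelled libraries, against 115.4 and 81.7 in the fl/fl libraries. Gm5541, an annotated pseudogene, was at 0.325, the integrin gene Itgad at 0.337, the neuritin gene Nrn1 at 0.349 and the adhesion gene Dscam at 0.404. The 5 genes lie on chromosomes 1, 3, 7, 13 and 16, and the median distance of all genes compared was 1.64. Of the locus, Txlna was closest, at 1.52 and rank 3469, and Lck was at 1.78 and rank 9976. The 4 libraries carry the contrast that chose Fam167b, so its nearest genes had to show similar increases (log2 differences 2.36 to 3.05). The ranks of the locus genes depend on that contrast too, and nothing more is read from them. Gm5541, Itgad, Nrn1 and Dscam were under 50 in both fl/fl libraries and passed the filter only through the libraries labelled dLck-Cre.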

How the data were processed

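The data were a deposited table of 4 libraries, 2 for each of 2 donor genotypes. The values the authors deposited are a count-based signal, scaled by a size factor for each library. Within a library 100% of them were multiples of a common step (tolerance 1e-06), so whole reads could be recovered. The build was mm10, per the submitters' processing notes. Aligner, counter, strand setting and annotation are not given in the sources used here. Columns were assigned by the names in the labels, and 6 weeks is the time after transfer that they state.

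Groups were compared with limma 3.58.1 (intensity trend, R 4.3.3) on log2(value + 1), so fold changes of low genes are understated. A mean of at least 10 was required, which left 16490 of 16555 genes, with Benjamini-Hochberg adjustment over all of them and a threshold of 0.05. The tests were first tried on simulated data. edgeR 4.0.16 and DESeq2 1.42.0 were run on the recovered reads as alternatives, beside other pseudocounts, filters, normalizations (also to T cell markers), a replicate block and each library left out. The design had assumed normalized counts, which the table held. The replicate numbers are not stated to mark a shared animal or batch.

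Positions and exon lengths came from GENCODE vM21 (GRCm38, the assembly of mm10), by symbol, where 16037 symbols matched 1 gene. Promoters came from the RefSeq table, which held 5 of the 9 genes. Exact intervals used scipy 1.17.1 and figures matplotlib 3.10.9. The 9 genes, the lists and the tests were chosen with earlier results of these data known. Named beside the 9 were the called genes within 1 Mb and the 5 genes most like Fam167b. Of each list, up to 3 called genes by p-value were named. Frk, Fyn, Cd5, Dcdc2b, Cd8a, Cd8b1 and Eomes were added after their values were seen. A gene that this rule names is not reported here.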

Additional observations from a re-analysis of the deposited data

How the results depend on the processing

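The Fam167b difference of 3.16 stayed positive under all 12 alternatives of processing, between 2.76 and 3.70 (3.70 when scaled to T cell markers), and between 2.75 and 3.57 with 1 library left out. It lost limma's call without the intensity trend and without dLck-Cre replicate 2. As a log2 difference of its share of Fam167b plus Lck reads, it was 3.58, and 3.02 to 4.14 with 1 library left out. Of the neighbours, Lck, Hdac1, Eif3i, Tmem234, Iqcc, Ccdc28b and Kpna6 were above 0 when scaled to T cell markers, which raises every gene by the same 0.54, and Txlna (0.70) and Kpna6 (0.45) were then called. Where a library was left out, the lone library of its group was assumed to vary like the others.

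The count of 1150 genes called over all genes was 341 after quantile normalization, 5378 (5330 higher) when scaled to T cell markers, 0 without the trend (3443 at an unadjusted p under 0.05), 1133 with edgeR, 1768 with DESeq2 and 2096 with the replicate block, and 17 to 1290 with 1 library left out. The share of higher calls was 82.4%, and 99.1% when scaled to T cell markers. The 5 genes called within 1 Mb were 2 after quantile normalization, 13 when scaled to T cell markers, 0 without the trend (10 at an unadjusted p under 0.05), 5 with edgeR and with DESeq2, 3 within 0.5 Mb and 0 to 4 with 1 library left out. With the replicate block they were 5 as well, and Fam167b was called. Same-numbered libraries had deviations correlated at 0.110 over genes, with 2 pairs only, and the labels give no pairing. The cause of these changes was not tested. At 8 and 10 reads in the fl/fl libraries, depth limits the size of the Fam167b ratio.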

Other observations

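Of 48 genes called as at least 4-fold higher and placed on a chromosome, 32, or 66.7%, had both next tested genes not called. Among all 15928 genes so placed the share was 86.5%. On chromosome 4 as a whole 76 of 946 tested genes, or 8.03%, were called, beside 6.97% of all genes.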
